A study of Mus musculus with 8 samples.

Results

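The potassium channel genes of the mouse hippocampus were described by subfamily, for their abundance and for the difference between wild-type (WT) and Slm2KO libraries. Members were the rows whose symbol begins with Kcn, then further letters and a digit, leaving out Kcnj13, Kcne2 and transcripts whose names end in ot1 or os. Of 56575 features in the table, of which 24338 carry a symbol, 100 rows matched. They gave 93 members after 3 repeated rows of lower mean (1 of Kcnma1 and 2 of Kcnq1) and the excluded names were left out. The members comprise 91 genes of channel subunits and their close auxiliary subunits, and 2 antisense transcripts at the Kcnmb4 locus, Kcnmb4os1 and Kcnmb4os2, whose names end in a digit and so met the rule.

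Potassium channels set the resting potential of neurons, repolarise the action potential and limit repetitive firing. Voltage-gated channels open on depolarisation, calcium-activated channels open when intracellular calcium rises, inward rectifiers pass current best near rest, and tandem-pore (K2P) channels carry a steady leak. In glia, inward rectifiers and leak channels hold the membrane near the potassium potential and take up potassium released by active neurons.

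Hippocampal RNA was sequenced from C57BL/6 mice aged 8 weeks, in 4 libraries labelled WT and 4 labelled Slm2KO, with no treatment named in either group. SLM2 is an RNA-binding splicing regulator encoded by Khdrbs3, and the stated aim was to examine its loss at the level of whole genes and of splicing. Separate animals are not named for the numbered samples, and p-values cover the spread between these samples. The summed value of 4 Y-linked genes was 17979 to 19517 in WT 4, Slm2KO 3 and Slm2KO 4 and 0 to 3.62 in the other 5 libraries, so both labels hold libraries with and without Y-linked reads. With Y-linked reads as a covariate, limma called 0 members and 54 of 84 differences were negative. The shares of all features under that covariate were not computed. The sources used here do not say how Khdrbs3 was altered.

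Read counts recovered from the normalised values summed to 104020058 to 125985224 per library. These are sums over features, some of which overlap, and not numbers of reads sequenced. Khdrbs3 itself was not lower under the Slm2KO label: its whole-gene normalised read count was 19457 to 24544 in WT and 25932 to 33366 in Slm2KO, so groups are named by their labels throughout. No gene of the 10 cell type marker lists, neuronal lists of the hippocampal fields included, had a mean under 10. Ttr, a transcript of the choroid plexus, ran from 219052 in WT 2 to 2262369 in Slm2KO 4. Slm2KO 4 also stood apart for the members, and values without it are given beside the differences it moved by over 1.5 times.

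Levels are given as normalised reads per kb of exon, as means over the 8 libraries unless a group is named. On this scale genes can be set side by side only roughly, since the length used can change level and order. By longest transcript in place of all exons, Kcnj6 went from 415 to 873 per kb and Kcnj9 from 439.5 to 489, which reversed their order. The members spanned 0 to 9132 per kb. Of the 93 members, 19 stood at 1000 per kb or more and together held 74.1% of the summed level, 45 lay between 100 and 1000, 17 between 10 and 100, and 12 below 10. Kv1 and the inward rectifiers held the largest shares of the sum, at 21.0% and 21.4%, followed by K2P (11.1%), the Kv beta subunits (10.2%) and the silent Kv subunits (9.57%). In a whole tissue, fewer cells of a type and less RNA per cell cannot be told apart.

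**Figure D1:**
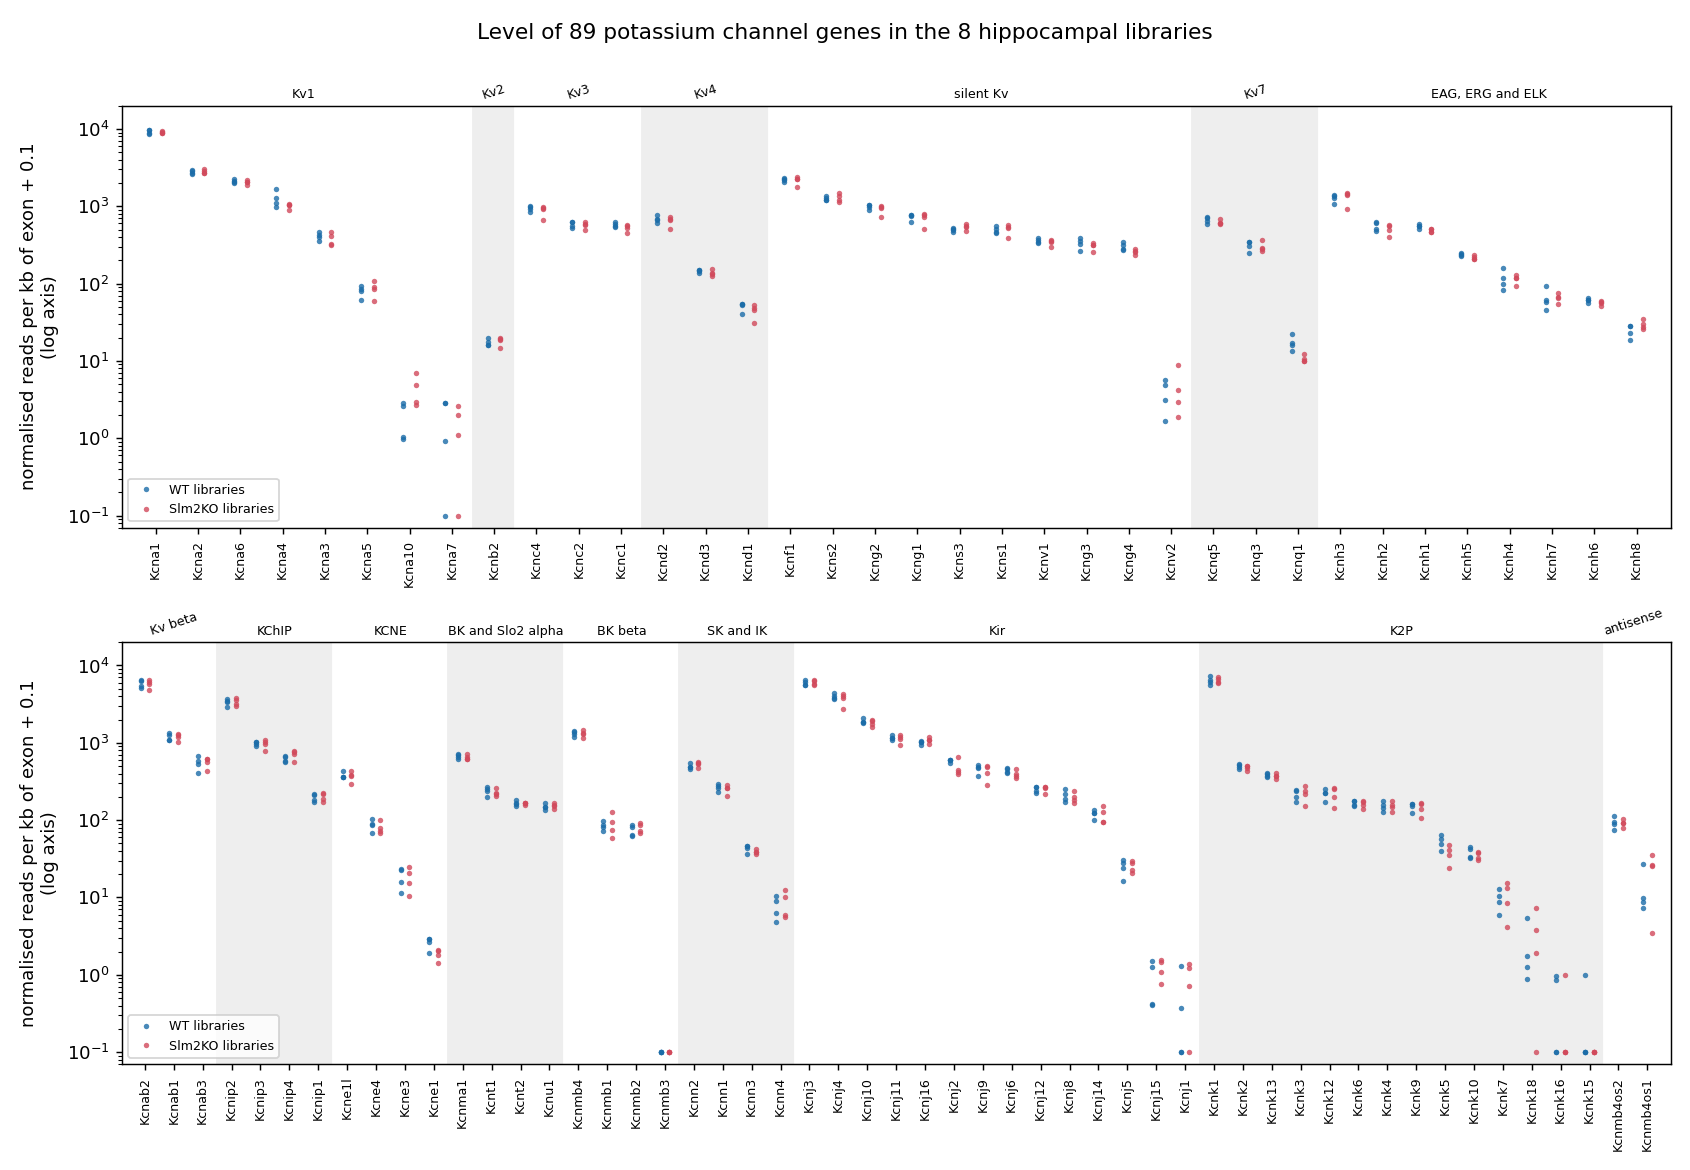
Normalised reads per kb of exon, plus 0.1, on a log axis for 89 members, arranged by subfamily; each point is 1 library, blue for WT and red for Slm2KO. Levels fall steeply within most subfamilies, and Kcna1 is highest with a mean of 9132 per kb.

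Among the pore-forming voltage-gated subunits, the Kv1 family was led by Kcna1, an axonal delayed rectifier subunit that is mutated in episodic ataxia. Its level was 8655, 8845, 9666 and 9732 per kb in WT 1 to 4 and 8817, 9231, 8752 and 9359 per kb in Slm2KO 1 to 4. All 8 libraries lay close together and the groups overlapped, and Kcna1 had the lowest coefficient of variation of the tested members, at 4.64%. Kcna2, which assembles with Kcna1 in axonal channels, stood at 2772 ± 164 per kb in WT and 2814 ± 182 in Slm2KO (SD, n = 4 each). Kcna6 averaged 2069 per kb, although 41.7% of its 30-base stretches also occur in another annotated gene, mainly the predicted gene Gm26673, so its level is uncertain. Kcna4, which forms rapidly inactivating axonal channels, averaged 1139 per kb and Kcna3 399 per kb. Kcna5 averaged 83.0 per kb, and Kcna7 and Kcna10 were at 1.47 and 3.04 per kb.

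The genes Kcna3, Kcna2 and Kcna10 lie next to one another on chromosome 3, with gaps of 63436 and 68049 bases, yet their levels differed by orders of magnitude. Their promoter windows are shown because neighbours of 1 family with such unlike levels can be read side by side. Each is the 250 bases upstream of the RefSeq transcription start in GRCm38.p6, all on the plus strand, at chr3:107101317-107101566 for Kcna2, chr3:107035912-107036161 for Kcna3 and chr3:107182893-107183142 for Kcna10, with every CG dinucleotide in capitals.
Kcna2: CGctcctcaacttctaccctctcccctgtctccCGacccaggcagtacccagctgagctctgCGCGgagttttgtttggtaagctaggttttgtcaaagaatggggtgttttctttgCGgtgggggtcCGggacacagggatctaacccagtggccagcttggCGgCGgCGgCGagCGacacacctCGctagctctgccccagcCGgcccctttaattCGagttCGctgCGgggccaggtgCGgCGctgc
Kcna3: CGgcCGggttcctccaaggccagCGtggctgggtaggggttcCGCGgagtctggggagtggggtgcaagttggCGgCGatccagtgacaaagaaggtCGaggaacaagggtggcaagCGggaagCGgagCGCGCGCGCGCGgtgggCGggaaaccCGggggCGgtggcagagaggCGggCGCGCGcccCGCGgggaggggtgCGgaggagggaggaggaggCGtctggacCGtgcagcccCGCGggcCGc
Kcna10: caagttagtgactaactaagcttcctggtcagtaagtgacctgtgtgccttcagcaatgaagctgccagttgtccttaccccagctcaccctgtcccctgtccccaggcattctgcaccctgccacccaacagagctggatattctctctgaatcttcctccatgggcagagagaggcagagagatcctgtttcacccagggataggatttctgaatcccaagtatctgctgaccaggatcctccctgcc
The windows hold 18 CG dinucleotides for Kcna2, 31 for Kcna3 and 0 for Kcna10, so the order of CG counts is not the order of levels.

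A promoter entry was found for 67 of the 93 members. Taking the richest window of each gene, 38 of the 67 (56.7%) held at least 10 CG dinucleotides, against 40.2% of all 27025 genes with an entry. By level, this was so for 7 of 13 members at 1000 per kb or more, 22 of 31 between 100 and 1000, 8 of 13 between 10 and 100, and 1 of 10 below 10. The letters TATAAA, searched on both strands, occurred in 2 of the 67 members (2.99%) and in 14.3% of all genes with an entry. Members with no entry included Kcnt1, Kcnu1, Kcnh3, Kcnk3, Kcnk6, Kcnk9, Kcne1, Kcnj11, Kcnj14, Kcnab3, Kcna1, Kcnb2, Kcnd1, Kcnq3, Kcnq1, Kcnn2, Kcnmb4os1, Kcns2, Kcng2, Kcng1, Kcnv1 and Kcnv2.

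Kcnb2, a delayed rectifier of the Kv2 family, averaged 17.6 per kb. In the Kv3 family, whose fast channels serve high-frequency firing, Kcnc4 averaged 906, Kcnc2 577 and Kcnc1 550.1 per kb. An unnamed feature with a mean value of 1190 overlaps Kcnc4 on the same strand, against 3324 for Kcnc4.

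Kcnd2, the main dendritic A-type subunit of pyramidal neurons, held 77.7% of the Kv4 level. It stood at 657, 678, 614 and 772 per kb in WT 1 to 4 and 662, 730.0, 679.7 and 507 per kb in Slm2KO 1 to 4, lowest in Slm2KO 4. Kcnd3 averaged 143 and Kcnd1 47.5 per kb. Among the Kv7 genes, whose products carry the muscarine-sensitive M current, Kcnq5 led at 642, 717, 589 and 711 per kb in WT 1 to 4 and 590.5, 676, 604 and 606 per kb in Slm2KO 1 to 4, with overlapping groups. By longest transcript in place of all exons, Kcnq5 no longer led Kv7, while 14 of the 15 subfamilies kept their leader. Kcnq3, an M-channel subunit, averaged 307 per kb, and Kcnq1, best known from heart and epithelia, 13.9 per kb.

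In the EAG, ERG and ELK group, Kcnh3, an ELK channel of forebrain neurons, led at 1370.1, 1415, 1059.6 and 1287 per kb in WT 1 to 4 and 1479.8, 1455, 1399 and 923 per kb in Slm2KO 1 to 4. Slm2KO 4 lay below every other library for Kcnh3, while the remaining Slm2KO libraries were among the highest. Kcnh2 averaged 529.6, Kcnh1 518 and Kcnh5 227 per kb, and the lowest of the group was Kcnh8 at 26.9 per kb.

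Silent Kv subunits form no channel alone and modify Kv2 channels. Kcnf1 was highest of the 10, at 2247, 2319, 2042 and 2175 per kb in WT 1 to 4 and 2399, 2276, 2268 and 1754 per kb in Slm2KO 1 to 4, again lowest in Slm2KO 4. Kcns2 averaged 1290.1, Kcng2 951 and Kcng1 714 per kb. Kcns3, Kcns1, Kcnv1, Kcng3 and Kcng4 lay between 281 and 519 per kb. Kcnv2, a subunit best known from photoreceptors, was at 4.03 per kb.

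The auxiliary subunits included some of the most abundant members. Kcnab2, a Kv beta subunit that binds Kv1 channels in the cytoplasm, stood at 5473, 6419, 5187 and 6255 per kb in WT 1 to 4 and 5843, 6498, 6043 and 4834 per kb in Slm2KO 1 to 4. Slm2KO 4 was its lowest library and Slm2KO 2 its highest, so the groups overlapped. Kcnab1 averaged 1192 and Kcnab3 553 per kb. Kcnip2, a calcium-binding KChIP that associates with Kv4 channels, stood at 2940.1, 3687, 3459 and 3392 per kb in WT 1 to 4 and 3196, 3770.3, 3552 and 3030.5 per kb in Slm2KO 1 to 4. Kcnip3, Kcnip4 and Kcnip1 averaged 971, 663 and 197 per kb. Of the KCNE single-span subunits, Kcne1l led at 358, 428, 362 and 359 per kb in WT 1 to 4 and 369, 384, 426 and 290.4 per kb in Slm2KO 1 to 4. Kcne4 averaged 83.3 and Kcne1 2.11 per kb, and Kcne3 stood at 18.3 ± 5.73 per kb in WT and 17.7 ± 6.13 in Slm2KO (SD, n = 4 each).

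Kcnma1 encodes the pore of BK, the large-conductance channel opened by calcium and depolarisation. It stood at 663, 715, 624 and 705 per kb in WT 1 to 4 and 653, 718, 610.0 and 612 per kb in Slm2KO 1 to 4, with overlapping groups. The sodium-activated Kcnt1 and Kcnt2 averaged 232 and 165 per kb, and Kcnu1, best known from sperm, 152 per kb. Kcnmb4, the neuronal BK beta subunit, held 89.0% of its subfamily's level, at 1183, 1315, 1377 and 1428 per kb in WT 1 to 4 and 1319, 1456, 1302 and 1152 per kb in Slm2KO 1 to 4. It shares 36.5% of its 30-base stretches with other annotated genes, its own antisense transcripts among them, and those averaged 91.9 (Kcnmb4os2) and 17.8 per kb (Kcnmb4os1). Kcnmb1, the smooth muscle BK beta subunit, averaged 86.0 per kb and its span overlaps that of Kcnip1 on the opposite strand, while 2.70% of its 30-base exon stretches occur in any other annotated gene. Kcnmb2 averaged 76.1 per kb. Kcnmb3 had 0 reads in all 8 libraries together, a count that, for independent reads, allows up to 3 reads or 0.22 per kb. Of the small-conductance SK genes, which give the afterhyperpolarisation, Kcnn2 led at 454, 490.4, 481 and 550.5 per kb in WT 1 to 4 and 550.4, 529, 563 and 466 per kb in Slm2KO 1 to 4. Kcnn1 averaged 258, Kcnn3 40.9 and Kcnn4, the intermediate-conductance channel, 7.98 per kb.

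The inward rectifiers were led by Kcnj3, a GIRK subunit opened by G protein beta-gamma. Its level was 5635, 6085, 5594 and 6543 per kb in WT 1 to 4 and 5836, 6229, 6453 and 5645 per kb in Slm2KO 1 to 4. The libraries lay in a narrow band and the groups overlapped, although 30.4% of the 30-base stretches of Kcnj3 also occur in another annotated gene, mainly Gm26794. The GIRK partners Kcnj9 and Kcnj6 averaged 439.5 and 415 per kb. Kcnj4, a strong rectifier of forebrain neurons, averaged 3833 per kb. Kcnj10, the main glial inward rectifier, averaged 1863 per kb and its partner Kcnj16 1047 per kb. Kcnj11, the pore of neuronal KATP channels, averaged 1147 per kb against 203 per kb for the vascular KATP pore Kcnj8. The strong rectifiers Kcnj2 and Kcnj12 averaged 533 and 252 per kb, and the GIRK subunit Kcnj5 24.9 per kb. Kcnj14 averaged 119 per kb, with 35.8% of its 30-base stretches also in the predicted gene Gm5522.

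Kcnk1, a weak leak channel of the TWIK type, held 77.6% of the K2P level. It stood at 6042, 5508, 7273 and 6558 per kb in WT 1 to 4 and 6058, 6001, 6756 and 7065 per kb in Slm2KO 1 to 4, and the groups overlapped. The next K2P members were far lower: Kcnk2, a channel gated by stretch and lipids, averaged 484 per kb and Kcnk13 376 per kb. The acid-sensitive Kcnk3 and Kcnk9 averaged 216 and 146 per kb, and Kcnk12, Kcnk6 and Kcnk4 lay between 151 and 216 per kb. Kcnk5, Kcnk10 and Kcnk7 averaged 44.8, 36.2 and 9.77 per kb.

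The 9 members with a mean under 10 were Kcnmb3, Kcnk15, Kcnk16, Kcnj1, Kcna7, Kcnj15, Kcna10, Kcne1 and Kcnk18, and they were not tested. Summed over 8 libraries, the last 8 of these had 2, 6, 15, 26, 49, 52, 55 and 74 reads. With no filter on low values, Kcna10 had an unadjusted limma p under 0.05, higher in Slm2KO, and none of the 9 passed adjustment. The limit given for Kcnmb3 covers counting error only and takes reads as independent. Even numbers made up 66.2% to 70.3% of read counts below 20, so that limit may be too low.

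The median coefficient of variation of the tested members over the 8 libraries was 11.2%, against 8.19% for features whose mean lay in the members' middle range and 12.3% for all features tested. Kcnt2, Kcna6 and Kcna2 were among the steadiest, at 5.07%, 5.46% and 5.80%. Abundant but variable members included Kcna4 at 21.0% and Kcnh3 at 15.5%.

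Slm2KO 4 was the lowest library for 41 of 84 tested members (48.8%), against 25.7% of all features tested, and its median deviation from the member means was -0.19 on the log2 scale. The summed level of 10 of the 15 subfamilies was lowest there. The members took 0.314% of the values in Slm2KO 4 and 0.326% to 0.355% in the others. Ttr was highest in the same library, and its part in the low member values was not tested.

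**Figure D2:**
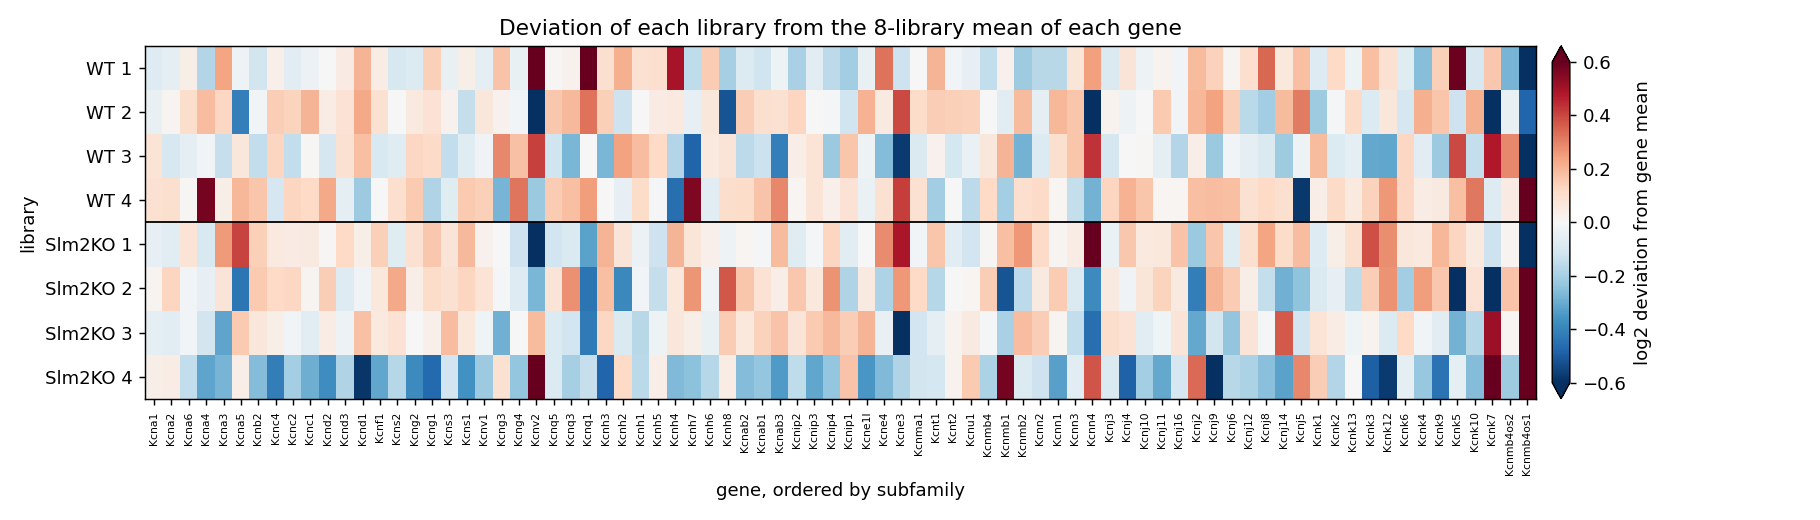
Log2 deviation of 80 tested members (columns, by subfamily) from the mean of each over the 8 libraries (rows), red for higher and blue for lower, with colours capped at 0.6. The row of Slm2KO 4 is mostly blue, and its median over all 84 tested members was -0.19.

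No potassium channel member passed the threshold between the labels: limma called 0 of 84 at an adjusted p under 0.05, against 0.0039% of all 25667 features tested. At an unadjusted limma p under 0.05, 4 members (4.76%) were lower in Slm2KO against 1.82% of all features, and 0 were higher against 1.7%. The groups did not overlap for 2 members, both lower (2.38% against 1.17%), and for 0 in the higher direction (against 1.33%). On recovered reads, edgeR called 0 members, against 0.0039% of all features, with 4 lower (against 1.89%) and 0 higher (against 1.91%) at an unadjusted p under 0.05. DESeq2 also called 0, against 0.0469% of features with an adjusted p, with 5 lower and 0 higher at an unadjusted p under 0.05, each against 1.84% of all features. DESeq2 gave no adjusted p for 6 of the tested members.

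The precision of the comparison can be read from the intervals. The 95% interval of the fold lay within 1.5-fold either way for 73 of 84 members (86.9%), against 65.7% of all features, and within 2-fold for 80 of 84 (95.2%), against 85.2%. The median standard error of a member's log2 difference was 0.109.

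Negative differences (lower in Slm2KO) were found for 54 of 84 members (64.3%), against 53.9% of all features, with a median log2 difference of -0.05 against -0.01. This lean was not seen without Slm2KO 4: 41 of 84 differences were then negative and the median was 0.0034. The share and median of all features without that library were not computed. Summed over all members, the level was 75055 ± 2979 per kb in WT and 73619 ± 4482 in Slm2KO (SD, n = 4 each), from 67063 in Slm2KO 4 to 78869 in WT 4.

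By subfamily, every tested member of Kv3 (4), Kv4 (3), Kv7 (5) and KCNE (3) had a negative difference, with median log2 differences of -0.11, -0.08, -0.10 and -0.06. The signs were mixed elsewhere, with 4 of 6 negative in Kv1, 6 of 10 in silent Kv, 4 of 8 in EAG, ERG and ELK, 8 of 12 in Kir and 7 of 11 in K2P. KChIP had 1 negative of 4, Kv beta 2 of 3, BK and Slo2 alpha 3 of 4, BK beta 1 of 3 and SK and IK 2 of 4. The summed level of Kv3, Kv4, Kv7 and KCNE was in each case lowest in Slm2KO 4. Without that library 2 of 4 Kv3 members, 2 of 3 Kv4 members, 4 of 5 Kv7 members and 2 of 3 KCNE members had a negative difference. Negative differences then also numbered 5 of 12 in Kir, 0 of 3 in Kv beta, 5 of 10 in silent Kv and 1 of 4 in SK and IK. The other subfamilies kept their counts.

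**Figure D3:**
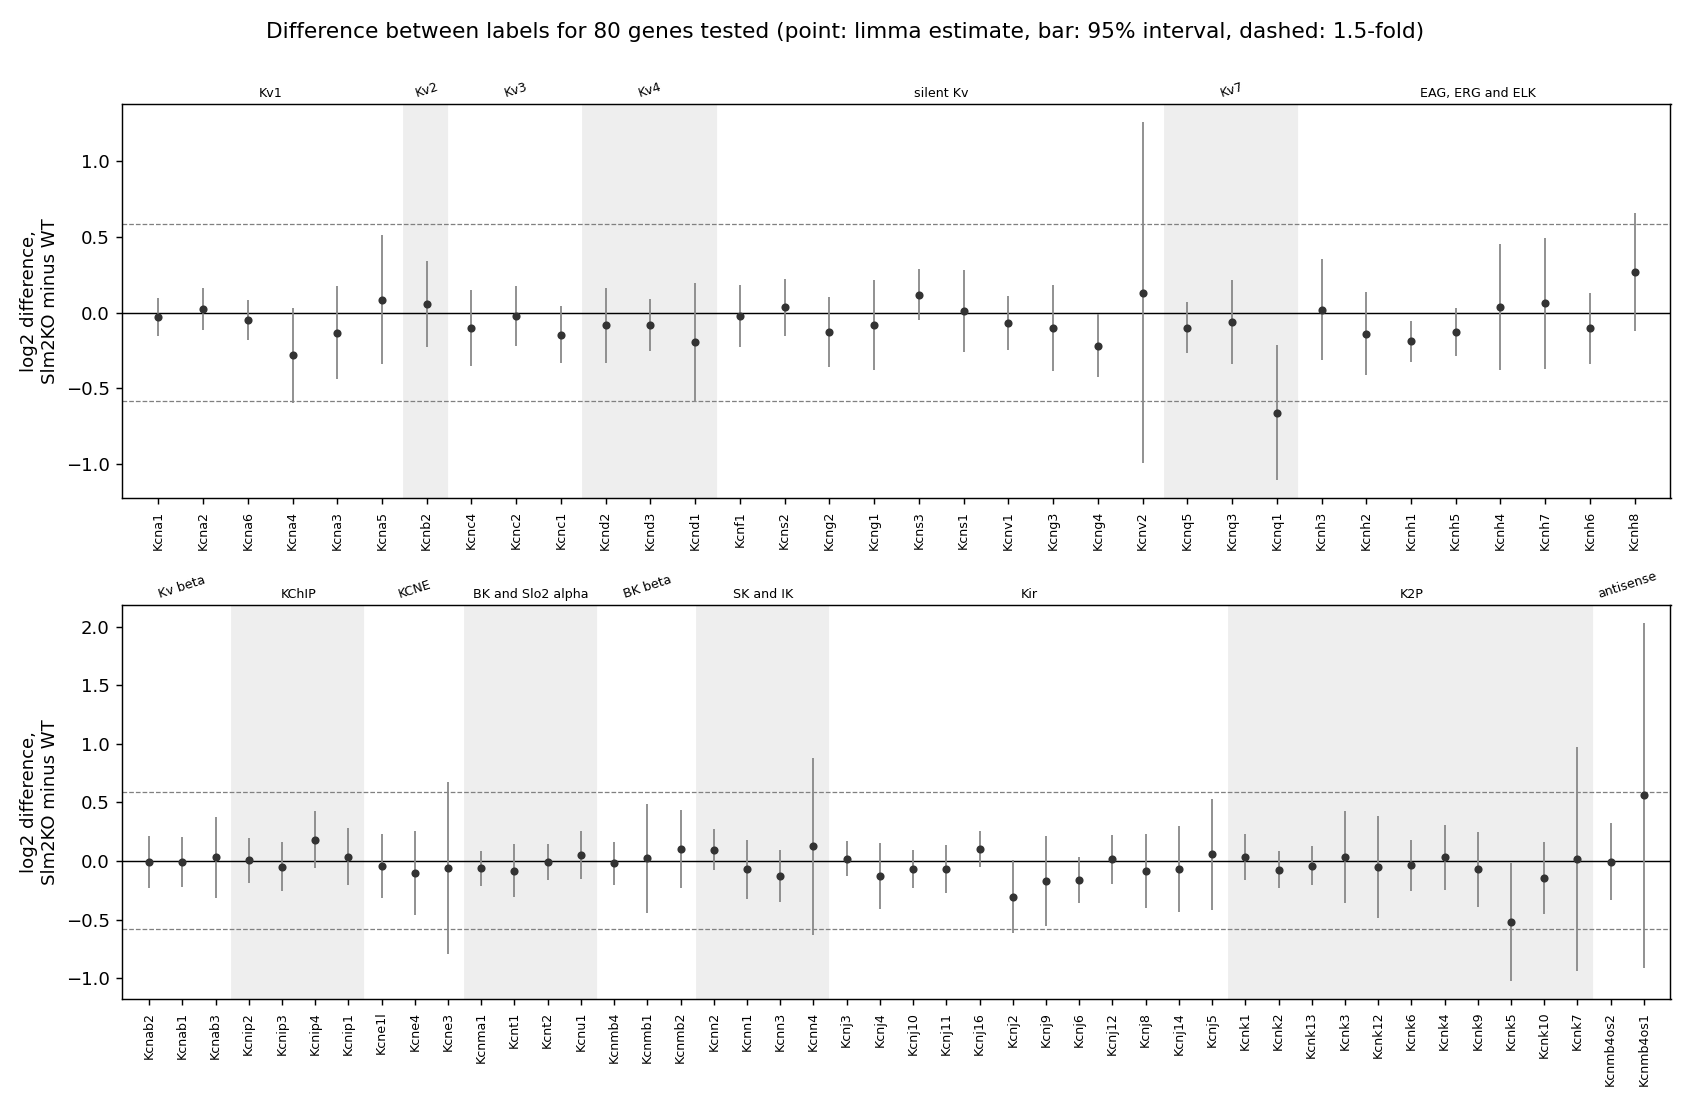
Log2 difference (Slm2KO minus WT) of 80 tested members by subfamily, with bars for 95% intervals from limma and dashed lines at 1.5-fold. Most lie below 0, as did 54 of all 84 tested members, and none passed the adjusted threshold.

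Of the 24 members with the smallest limma p, 23 are described next, as normalised read counts per library, and every one had a limma adjusted p of 1.00. Kcnq1 (chromosome 7, 143106362 to 143427050, plus strand) had 92.1, 68.7, 54.7 and 65.1 in WT 1 to 4 and 43.4, 40.0, 40.4 and 49.6 in Slm2KO 1 to 4. All WT values lay above all Slm2KO values, with WT 1 highest. The log2 difference was -0.66 (SE 0.201), with an unadjusted limma p of 0.00812 and a two-sided exact permutation p of 0.0286, the smallest that 70 assignments allow. Kcnq1 overlaps the much more abundant Kcnq1ot1, an antisense transcript with a mean of 5169 against 56.7 for Kcnq1. Of the 30-base exon stretches of Kcnq1, 2.42% also occur in Kcnq1ot1. The kit does not mark strand, so reads from those stretches cannot be told apart.

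Kcnh1, an EAG channel of neurons (chromosome 1, 192190777 to 192510158, plus strand), had 4031, 3773, 4303 and 4084 in WT 1 to 4 and 3688, 3742, 3371 and 3385 in Slm2KO 1 to 4. Every WT value exceeded every Slm2KO value, by a small margin between WT 2 and Slm2KO 2. The log2 difference was -0.19 (SE 0.061), with an unadjusted limma p of 0.011 and an exact permutation p of 0.0286. Hhat, on the opposite strand, overlaps the span of Kcnh1 with a mean of 155.

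Kcng4, a silent subunit, had 1028, 1051, 1199.8 and 1325 in WT 1 to 4 and 974, 1007, 1060.2 and 903 in Slm2KO 1 to 4. The groups overlapped, with WT 3 and WT 4 highest and Slm2KO 4 lowest. The log2 difference was -0.22 (SE 0.095, unadjusted limma p = 0.044, exact permutation p = 0.0857). Kcnk5, an acid-sensitive leak channel best known from kidney, had 221, 135, 193 and 167 in WT 1 to 4 and 161, 82.1, 120.2 and 141 in Slm2KO 1 to 4. WT 1 was highest and Slm2KO 2 lowest, with overlapping groups. The log2 difference was -0.52 (SE 0.227, unadjusted limma p = 0.0443, exact permutation p = 0.114), and it was -0.33 without Slm2KO 2.

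Kcnj2, a strong inward rectifier, had 3255, 3280.0, 2940.2 and 3241 in WT 1 to 4 and 2447, 2139.8, 2306 and 3617 in Slm2KO 1 to 4. In Slm2KO 1 to 3 it lay below every WT library, and Slm2KO 4 was the highest of all 8. The log2 difference was -0.30 (SE 0.141) with all libraries (unadjusted limma p = 0.0559, exact permutation p = 0.143) and -0.47 without Slm2KO 4 (limma adjusted p = 0.413). Over the 23 alternatives the difference of Kcnj2 ran from -0.47 to -0.22, and 0.413 was its lowest adjusted p.

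Kcna4 had 4787, 6154, 5357 and 8069 in WT 1 to 4 and 5087, 5228, 5021 and 4345 in Slm2KO 1 to 4. WT 4 stood far above the rest, and the groups overlapped. The log2 difference was -0.28 (SE 0.140, unadjusted limma p = 0.0705, exact permutation p = 0.171), and it was -0.14 without WT 4.

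**Figure D4:**
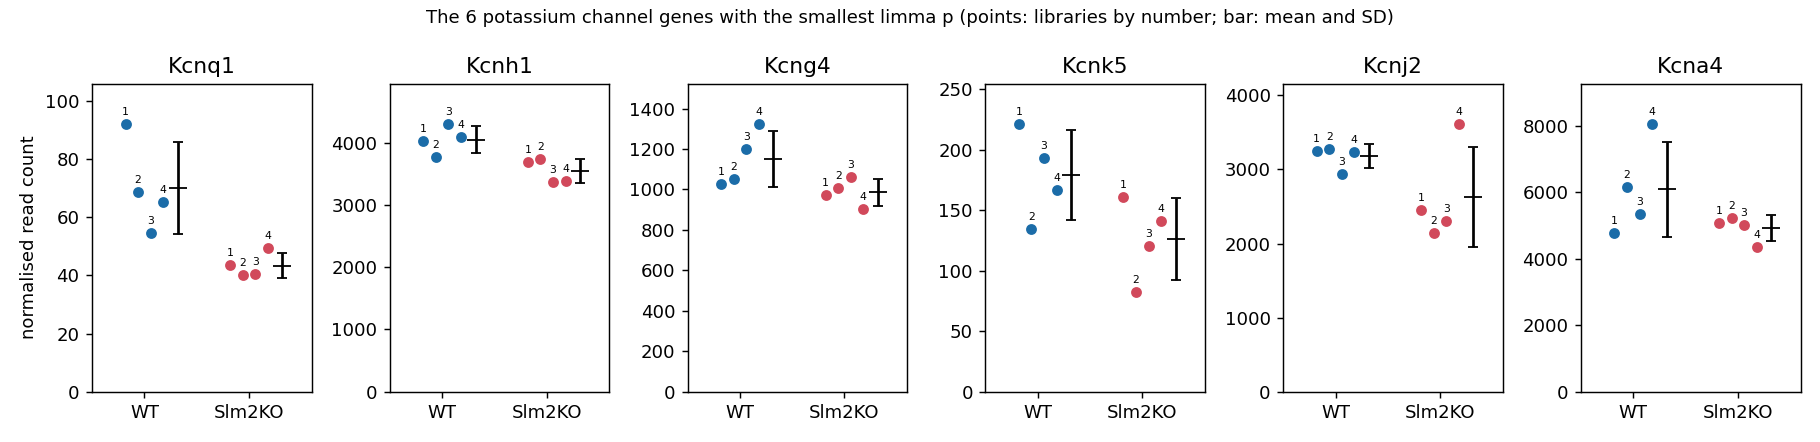
Normalised read counts per library, numbered as in the labels, for the 6 members with the smallest limma p, with bars for mean and SD. Groups separate for Kcnq1 and Kcnh1 and overlap for the others shown.

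For the remaining 17 of these the two-sided exact permutation p ran from 0.0571 to 0.571. Those with lower Slm2KO means included the GIRK subunit Kcnj6, at 3117 to 3572 in WT and 2678 to 3498 in Slm2KO, with a log2 difference of -0.16 (SE 0.087, exact permutation p = 0.143). An unnamed feature with a mean of 1626 overlaps Kcnj6 on the same strand. Kcnh5, the other EAG channel, ran from 911 to 999 in WT and 832 to 946 in Slm2KO, with a log2 difference of -0.13 (SE 0.071, exact permutation p = 0.0571). The fast-firing subunit Kcnc1 ran from 5054 to 5967 in WT and 4231 to 5373 in Slm2KO (log2 difference -0.15, SE 0.084). Groups overlapped for each of these, and the difference of Kcnc1 was -0.07 without Slm2KO 4.

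The M-channel gene Kcnq5 ran from 4529.8 to 5511 in WT and 4540.3 to 5201 in Slm2KO (log2 difference -0.10, SE 0.075). Kcnn3, an SK channel, ran from 386 to 478 in WT and 384 to 440.0 in Slm2KO (log2 difference -0.13, SE 0.098), and the silent subunit Kcng2 from 2666 to 3152 in WT and 2164 to 3012 in Slm2KO (log2 difference -0.13, SE 0.104). Kcnh2, an ERG channel known for its cardiac role, ran from 2336 to 3003 in WT and 1944 to 2761 in Slm2KO (log2 difference -0.14, SE 0.123). The lowest value of Kcng2 was that of Slm2KO 4, without which its difference was -0.021. The difference of Kcnh2 was -0.033 without Slm2KO 2, -0.092 without WT 1, -0.083 without WT 3 and -0.27 without both WT 2 and Slm2KO 4. That of Kcnn3 was -0.20 without WT 4, and that of Kcnq5 was -0.062 without WT 2, -0.16 without WT 3 and -0.066 without WT 4.

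The A-type genes Kcnd1 and Kcnd3 ran from 212 to 290.1 in WT and 165 to 279.8 in Slm2KO (log2 difference -0.20, SE 0.177) and from 1308 to 1452 in WT and 1204 to 1483 in Slm2KO (log2 difference -0.08, SE 0.076). The leak channels Kcnk10 and Kcnk2 ran from 286 to 392 in WT and 263 to 335 in Slm2KO (log2 difference -0.14, SE 0.137) and from 2253 to 2596 in WT and 2115 to 2462 in Slm2KO (log2 difference -0.07, SE 0.072). Kcnj4 ran from 8014 to 9441 in WT and 5841 to 9144 in Slm2KO (log2 difference -0.13, SE 0.126), and its difference was 0.012 without Slm2KO 4. For all 5 the groups overlapped and Slm2KO 4 was the lowest library. Without it the differences of Kcnd1, Kcnd3, Kcnk10 and Kcnk2 were -0.035, -0.038, -0.082 and -0.027. Leaving out other libraries in turn gave -0.30 for Kcnd1 without WT 4, -0.14 for Kcnd3 without Slm2KO 1 and -0.064 for Kcnk10 without WT 4. The same gave -0.080 and -0.20 for Kcnj4 without WT 4 and Slm2KO 1, and -0.045, -0.11 and -0.047 for Kcnk2 without WT 1, WT 3 and WT 4.

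The positive log2 differences among the 23 ran from 0.09 for Kcnn2 to 0.27 for Kcnh8. Kcnip4, a KChIP, ran from 2041 to 2436 in WT and 2032 to 2875 in Slm2KO (log2 difference 0.18, SE 0.108), with Slm2KO 1 to 3 above every WT library and Slm2KO 4 below them. The silent subunit Kcns3 ran from 1480.2 to 1668 in WT and 1510.4 to 1860.2 in Slm2KO (log2 difference 0.12, SE 0.076). Kcnh8, an ELK channel, ran from 84.1 to 130.2 in WT and 118 to 157 in Slm2KO (log2 difference 0.27, SE 0.175). Groups overlapped for Kcns3 and Kcnh8. Kcnj16, the partner of Kcnj10 in glia, ran from 3645 to 4141 in WT and 3833 to 4629 in Slm2KO (log2 difference 0.10, SE 0.069), and the SK channel Kcnn2 from 3387 to 4111 in WT and 3483 to 4208 in Slm2KO (log2 difference 0.09, SE 0.078). Without Slm2KO 4 the differences of Kcnip4, Kcnj16 and Kcnn2 were 0.29, 0.15 and 0.15. Leaving out other libraries gave 0.14 for Kcnh8 without WT 2, 0.077 for Kcns3 without Slm2KO 3, and 0.058 and 0.059 for Kcnj16 without WT 3 and Slm2KO 1. For Kcnn2 it gave 0.055, 0.15 and 0.061 without WT 1, WT 4 and Slm2KO 3.

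Genes whose products bind or regulate these channels were read from the same fit. Of 47 partner genes listed, 46 were found and 44 tested, and limma called 0. An unadjusted p under 0.05 was seen for 1 of the 44, a lower one (2.27%, against 1.82% of all features), and 29 differences were negative (65.9%, against 53.9%), with a median of -0.02. Lrrc55, a BK gamma subunit, was that gene, at 682 ± 52.3 in WT and 589 ± 40.9 in Slm2KO (SD, n = 4 each; log2 difference -0.21; limma adjusted p = 1.00; exact permutation p = 0.0571). In 4 other lists the smallest p belonged to Amigo1, a Kv2 partner (-0.14), Abcc8, a KATP sulfonylurea receptor (-0.15), Gng2, a G protein gamma subunit (0.07), and Calm3, a calmodulin gene (-0.09), all on the log2 scale. Without Slm2KO 4, negative differences fell from 12 to 9 of 18 Kv partners and from 6 to 2 of 12 GIRK regulators. They also fell from 5 to 2 of 6 sodium potassium ATPase genes. The other lists kept their counts, at 2 of 2 BK gamma subunits, 2 of 2 KATP sulfonylurea receptors and 2 of 4 calmodulin and SK partners. Also without Slm2KO 4, the differences of Amigo1, Abcc8 and Calm3 were -0.057, -0.084 and -0.040. Leaving out other libraries gave -0.092 for Abcc8 without WT 2, 0.039 and 0.032 for Gng2 without WT 1 and Slm2KO 3, and -0.14, -0.047 and -0.14 for Calm3 without WT 1, WT 2 and Slm2KO 2.

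Of the cell type markers, limma called 0 in each list. An unadjusted limma p under 0.05 was seen for 4 of 10 dentate granule cell and 2 of 10 CA2 and CA3 markers. It was also seen for 1 of 8 astrocyte, 2 of 8 oligodendrocyte and 2 of 8 microglial markers, and for 0 in each other list. Of all features, 1.82% were lower and 1.7% higher at that cut. All 10 dentate granule cell markers had negative differences (median log2 difference -0.12), and their summed values were 67215 to 74616 in WT and 60403 to 66560 in Slm2KO. All 10 CA2 and CA3 markers, of which Amigo2 is also on the list of Kv partners, were negative (median -0.10; sums of 49141 to 54097 and 44715 to 50819), whereas 8 of 9 CA1 markers were positive (median 0.14; sums of 17883 to 31818 and 20332 to 33865). Among the glial lists, 7 of 8 astrocyte markers, 7 of 8 oligodendrocyte markers, 5 of 6 precursor markers and 7 of 8 microglial markers were negative. Endothelial and mural markers had the lowest median, -0.23, with 8 of 9 negative, and interneuron markers had 5 of 12 negative. Choroid plexus and ependymal markers had 4 of 10 negative, with sums of 231062 to 1864830 in WT and 393827 to 2358620 in Slm2KO. Without Slm2KO 4, 8 of 10 dentate markers were negative (median -0.08; Slm2KO sums of 64404 to 66560), as were 9 of 10 CA2 and CA3 markers and all 10 choroid plexus and ependymal markers (median -0.37). Also without it, 0 of 9 CA1 markers were negative (median 0.31), against 5 of 8 astrocyte, 8 of 8 oligodendrocyte and 4 of 8 microglial markers and 8 of 9 endothelial and mural markers (median -0.11). The part of these marker differences in the member values was not tested.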

How the data were processed

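RNA-seq libraries were made with the Illumina TruSeq RNA kit, which does not mark strand, per the labels' protocols. The deposited signal is a normalised read count per gene, scaled by the authors with DESeq and not divided by length, per the submitters' processing notes. Those notes also name FastQC, Picard, SAMtools and hg19, whereas the file header gives mm10 coordinates, which are used here. The sources used here name neither the aligner nor the counter. Whole reads were recovered from the steps of the values, 100% of them whole within 0.001 of a read, although the step of WT 1 was too close to 1 to tell from rounding. Even numbers made up 66.2% to 70.3% of read counts from 1 to 19.

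Groups were compared with limma 3.58.1 (R 4.3.3) on log2(value + 1) with a trended prior, for the 25667 features with a mean of at least 10, with Benjamini-Hochberg adjustment over all of them at 0.05. A fold on this scale understates the change of low genes. The test was run on simulated data with independent libraries and the same dispersion for all features. That check does not cover a library that stands apart, as Slm2KO 4 did. Levels per kb divide values by the exon union of GENCODE vM21, matched by Ensembl ID for all 93 members. Promoter sequences are from RefSeq (GRCm38.p6). The alternatives used edgeR 4.0.16 and DESeq2 1.42.0. Within limma, 0.5 or 10 was added before the log, and the filter was dropped or raised to a mean of 50. Other fits used edgeR TMM or quantile scaling, no trend, or array weights. Covariates were the replicate number, Y-linked reads, log2 Ttr and the series of label numbers. Label numbers run lower in replicates 1 and 2 of both labels than in replicates 3 and 4. Each library was left out in turn, and WT 2 and Slm2KO 4 together. Python 3.11.15 and matplotlib 3.10.9 drew the figures.

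Differences are given for members past the threshold and the 24 with the smallest p, levels per library for the top member of each subfamily, and for partners the smallest p of each list. Other members were named for their roles after their values were seen. The members and lists were chosen with earlier results of these data known. Single-gene results for some members and partners that these rules name are not reported here. Splicing was not analysed here.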

Additional observations from a re-analysis of the deposited data

Results flagged for a closer look

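In 78 groups of 4 libraries examined, 5 held a value whose gap to the nearest of the others, as a share of the group's range, exceeded Dixon's critical value. Chance marks about 1 in 20 groups. Kcnj2 was 2940.2 in WT 3, below the other WT libraries, and Kcnj16 was 3645 in WT 3, also the lowest of its group. Kcnd1 was 212 in WT 4, the lowest WT value. Kcnh3 was 5314 in Slm2KO 4, far below the other Slm2KO libraries. Kcne1l was 660 in WT 2, far above the other WT libraries. These are normalised read counts.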

How the results depend on the processing

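No member passed the adjusted threshold in the main comparison or in any of 23 alternatives. For the 28 named differences, 644 values were recomputed, 0 of them past the threshold and 3 with the other sign. Members with an unadjusted p under 0.05 and higher in Slm2KO numbered 0 in the main comparison, 1 with no filter on low values, 2 with array weights, 1 with log2 Ttr as a covariate, 0 to 3 with a library left out (3 without Slm2KO 4) and 4 without both WT 2 and Slm2KO 4. Those lower numbered 4 in the main comparison, 2 without the trend, 8 with log2 Ttr as a covariate and 2 to 5 with a library left out (2 without WT 3 and 2 without WT 4). The members' median log2 difference was -0.05, ran from -0.079 to 0.0034 with a library left out (the latter without Slm2KO 4), and was 0.028 without WT 2 and Slm2KO 4. The log2 difference of Kcnj4 ran from -0.20 to 0.012 with a library left out, the latter without Slm2KO 4. Without WT 2 and Slm2KO 4 the log2 difference was 0.0080 for Kcnd1 and 0.0062 for Calm3. Shares of all features at an unadjusted p under 0.05 were computed only for the main comparison, edgeR and DESeq2. The counts under other settings therefore have no share beside them. Medians of all features were computed only for the main comparison. Apart from the libraries left out, the cause of these shifts was not tested.

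With the replicate number as a block, 0 members were called, 4 were lower at an unadjusted p under 0.05 and 54 differences were negative. Shares of all features under this block were not computed. Deviations of same-numbered libraries correlated at -0.12 to 0.32, and 3 of 8 libraries correlated best with their own number, so the numbers are not shown to pair the samples. Depth limits the 9 members with a mean under 10.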
